A study of Mus musculus with 17 samples.

Results

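The genes described here are 34 mouse genes of glycolysis and of the response to low oxygen. They were chosen by name with earlier results of these data known, so their shares beside all genes are a description. The list holds glucose transporters, enzymes from hexokinase to lactate dehydrogenase, the lactate exporter Slc16a3, the hypoxia-inducible factor subunits Hif1a and Epas1, and targets of these factors. Each was read from the probe set of the array that names only that gene, or from the one with the highest mean where several did. Of the 34 genes, 32 had such a probe set, out of 19938 genes in all. Gpi1 and Eno1 had none and are not analysed here, and Ero1l is listed under its current symbol, Ero1a.

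Cells break glucose down to pyruvate in the cytosol, and pyruvate either enters the mitochondria to be oxidised by the pyruvate dehydrogenase complex or is reduced to lactate, which leaves the cell through monocarboxylate transporters. When oxygen is plentiful, prolyl hydroxylases of the Egln family mark the HIF alpha subunits for destruction through Vhl, and when oxygen falls the subunits accumulate, pair with Arnt and bind short DNA sequences near genes for glucose uptake, glycolysis, pH control and matrix synthesis. Many tumours take up much glucose and release lactate even with oxygen present, and mammary tumours are among them. HIF alpha protein is set mainly by its breakdown, which mRNA levels do not report.

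The study measured mRNA on 17 arrays from mice of mixed strain, to compare mammary tumours that lack Rb and p53, mammary tumours that lack p53, and normal mammary tissue. The Rb/p53 group held 9 tumours. In 7 of them Cre came from the MMTV-Cre transgene, whose viral promoter is active in mammary epithelium: replicate 1 was from a nulliparous mouse, replicate 2 from a parous mouse, and replicates 3 to 7 were transplants. In the other 2 Cre came from the adenovirus Ad-CMVcre, with a general viral promoter, and both were transplants. The p53 group held 3 MMTV-Cre tumours. Normal mammary tissue, 5 samples, was taken from animals of the Rb/p53 line. The labels call the tumours independent primary tumours and do not give ages, the host of the transplants or the deleted exons. For p53 replicate 3 the labels conflict, since its title reads as an Rb/p53 tumour and its other fields as p53 deletion. It was kept in the p53 group, and changes among the genes with it moved to the Rb/p53 group are given with the comparisons.

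The values are log2 intensities, so a difference of 1 is a factor of 2, and they are not compared between genes. No library totals exist for arrays, and the number of samples limits the precision. Rb1 read 9.29 to 9.92 in the Rb/p53 tumours, 9.93, 11.00 and 10.27 in p53 replicates 1 to 3, and 10.93 to 11.50 in normal tissue, so p53 replicate 1 lay next to the highest Rb/p53 tumour. No probe set named Trp53 alone. The array of p53 replicate 2 stood apart: its correlation with the other arrays was 0.888 to 0.915, against 0.929 or more for all other pairs, and its values were less spread, with an interquartile range of 2.39 against 2.91 to 3.18. All 32 genes read above 6.37, the lowest 25th percentile of any array, on every array.

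The DNA sequence bound by HIF has the core ACGTG or GCGTG, and 5 promoters are shown as examples. Pgk1, Slc2a1, Slc16a3 and Ankrd37 are 4 of the 6 genes that were higher in all 12 tumours than in any normal sample, and Ldha did not pass the test in either kind of tumour. The 250 bases before the RefSeq start site are printed 5′ to 3′ on the gene's strand (build GRCm38.p6), with every ACGTG or GCGTG on either strand in capitals. They are Pgk1 (chrX:106186850-106187099, plus strand), Slc2a1 (chr4:119108495-119108744, plus strand), Slc16a3 (chr11:120948817-120949066, plus strand), Ankrd37 (chr8:45999851-46000100, minus strand) and Ldha (chr7:46845554-46845803, plus strand).
Pgk1: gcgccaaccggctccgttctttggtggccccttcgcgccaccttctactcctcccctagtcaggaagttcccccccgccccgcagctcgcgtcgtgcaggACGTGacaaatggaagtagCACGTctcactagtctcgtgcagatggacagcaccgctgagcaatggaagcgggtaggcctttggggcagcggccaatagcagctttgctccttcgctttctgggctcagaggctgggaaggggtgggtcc
Slc2a1: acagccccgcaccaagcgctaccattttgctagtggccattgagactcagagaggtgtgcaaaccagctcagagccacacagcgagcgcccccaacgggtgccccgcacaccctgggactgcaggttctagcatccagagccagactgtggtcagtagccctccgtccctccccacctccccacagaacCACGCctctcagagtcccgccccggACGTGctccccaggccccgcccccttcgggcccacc
Slc16a3: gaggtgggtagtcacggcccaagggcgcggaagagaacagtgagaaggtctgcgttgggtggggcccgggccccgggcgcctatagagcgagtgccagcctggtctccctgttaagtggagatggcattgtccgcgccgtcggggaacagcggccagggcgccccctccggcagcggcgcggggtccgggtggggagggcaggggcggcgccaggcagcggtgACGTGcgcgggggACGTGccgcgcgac
Ankrd37: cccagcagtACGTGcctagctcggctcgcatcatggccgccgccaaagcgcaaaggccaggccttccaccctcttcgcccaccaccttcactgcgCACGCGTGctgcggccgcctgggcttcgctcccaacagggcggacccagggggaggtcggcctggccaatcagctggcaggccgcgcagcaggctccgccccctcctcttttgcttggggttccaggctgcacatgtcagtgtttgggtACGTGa
Ldha: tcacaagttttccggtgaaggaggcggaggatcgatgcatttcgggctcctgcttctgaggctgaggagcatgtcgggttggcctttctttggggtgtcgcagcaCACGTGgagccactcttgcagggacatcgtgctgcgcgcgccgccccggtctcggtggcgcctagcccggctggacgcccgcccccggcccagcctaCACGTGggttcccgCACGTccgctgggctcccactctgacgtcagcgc
Pgk1 has an ACGTG at position -150, counted in bases from the start site, and another on the opposite strand at -131. Slc2a1 has an ACGTG at -36 and an opposite-strand GCGTG at -61. Slc16a3 has its matches at -27 and -14, and Ankrd37 has ACGTG at -241 and -6 besides a pair of GCGTG matches at -155 and -152. Ldha has the most: the palindrome CACGTG, which reads as ACGTG on both strands, at -145 and -48, and an opposite-strand ACGTG at -34.

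Windows from 250 bases before to 50 after the start were found in RefSeq for 29 of the 32 genes. At least 1 match stood in the windows of 27 of these 29 genes, and Tpi1 and Car12 had none. Over all genes with a window the share was 46.7% of 27025. Genes with more windows have more places for a match, and the 29 genes had 42 windows where all 27025 had 32851. By window, 33 of the 42 held a match, beside 43.8% of all windows. The windows of the 32 genes are richer in G and C, with a median of 62.15% GC against 52.7% for all windows. Among windows of 60 to 75% GC, 20 of 22 from these genes and 69.2% of 8499 overall held a match. A match did not separate genes by how they moved in the Rb/p53 tumours, since it was present in 10 of the 11 genes that rose and in 16 of the 17 matched genes that did not pass the test. A match is a string of letters and not a measured binding site.

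In the 9 Rb/p53 tumours, 11 of the 32 genes rose against the 5 normal samples (limma, adjusted p under 0.05 over all 19938 genes), 2 fell and 19 did not pass. The genes that rose were Slc2a1, Pfkm, Tpi1, Pgk1, Slc16a3, Hif1a, Car9, P4ha1, Ero1a, Ankrd37 and Kdm3a, and those that fell were Pfkfb3 and Epas1. This was 34.4% rising and 6.25% falling, against 14.2% and 13.4% of all genes, with 27.6% of all genes called in either direction. The median difference of the 32 genes was 0.34, and that of all genes 0.03. All 9 tumours lay above all 5 normal samples for 9 of the 32 genes, and below them for 2, where 7.90% and 8.31% of all genes did so. With the 7 transplants left out, which leaves 2 Rb/p53 tumours, 6 of the genes passed beside 10.1% of all genes: Pgk1, Slc16a3, P4ha1, Ero1a, Pfkfb3 and Epas1.

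In the 3 p53 tumours, 9 genes rose, 2 fell and 21 did not pass against the same 5 normal samples. Slc2a1, Slc2a3, Pgk1, Slc16a3, Hif1a, P4ha1, Ero1a, Ankrd37 and Kdm3a rose, and Pfkfb3 and Epas1 fell. The shares were 28.1% and 6.25%, against 8.34% and 12.1% of all genes, with 20.4% of all genes called. The median difference of the 32 genes was 0.21, beside 0.09 for all genes. All 3 p53 tumours lay above all normal samples for 7 genes and below them for 2, beside 9.87% and 13.5% of all genes. The comparisons share their normal samples, so the same gene rising in both is not independent evidence. All 12 tumours lay above all normal samples for 6 genes (Slc2a1, Pgk1, Slc16a3, Car9, P4ha1 and Ankrd37) and below for 1 (Epas1), beside 2.76% and 6.29% of all genes. The p53 count rests on replicate 1: without it 6 of the 32 genes passed, beside 19.5% of all genes, a share near the background. Without replicate 2, the array that stood apart, 14 passed, beside 21.2% of all genes. With replicate 3 counted among the Rb/p53 tumours, 10 passed in p53 and 14 in Rb/p53 tumours, beside 28.1% and 29.6% of all genes. In p53 tumours Pfkfb3 (-0.62, limma adjusted p = 0.161) and Ero1a (0.81, adjusted p = 0.0516) were then lost. Car9 passed there (0.89, adjusted p = 0.0485) and Slc2a3 passed in Rb/p53 tumours (0.46, adjusted p = 0.0389).

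**Figure D1:**
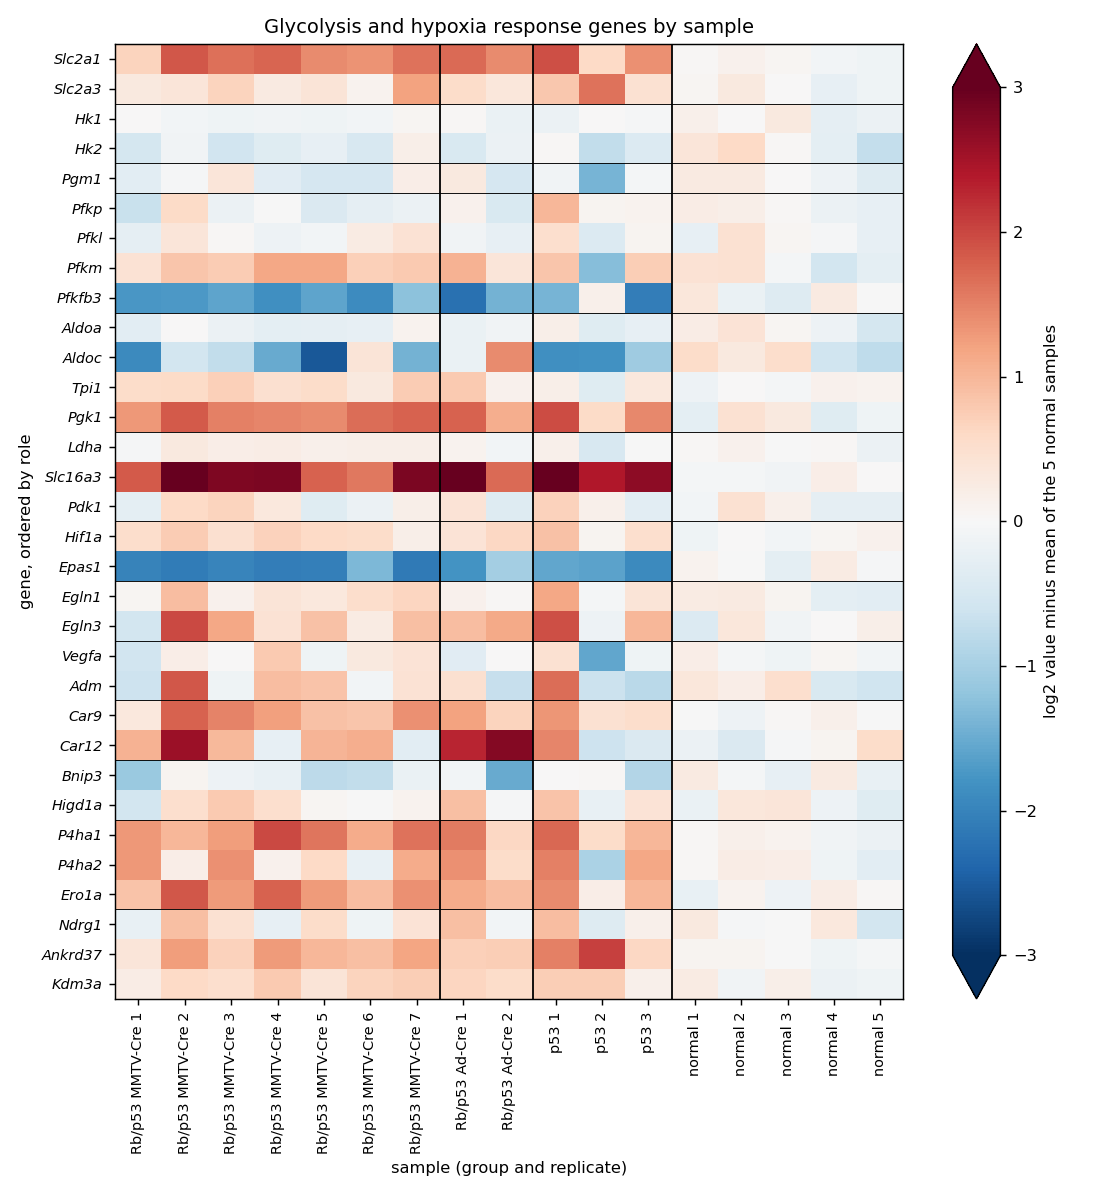
Log2 value of each of the 32 genes in each of the 17 samples, minus the mean of that gene over the 5 normal samples, with colours cut at 3 in either direction; rows follow the roles of the genes. Slc16a3, Pgk1, Slc2a1 and P4ha1 are high in all 12 tumours, Epas1 is low in all 12, and the column of p53 replicate 2 is the least like the other tumours.

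**Figure D2:**
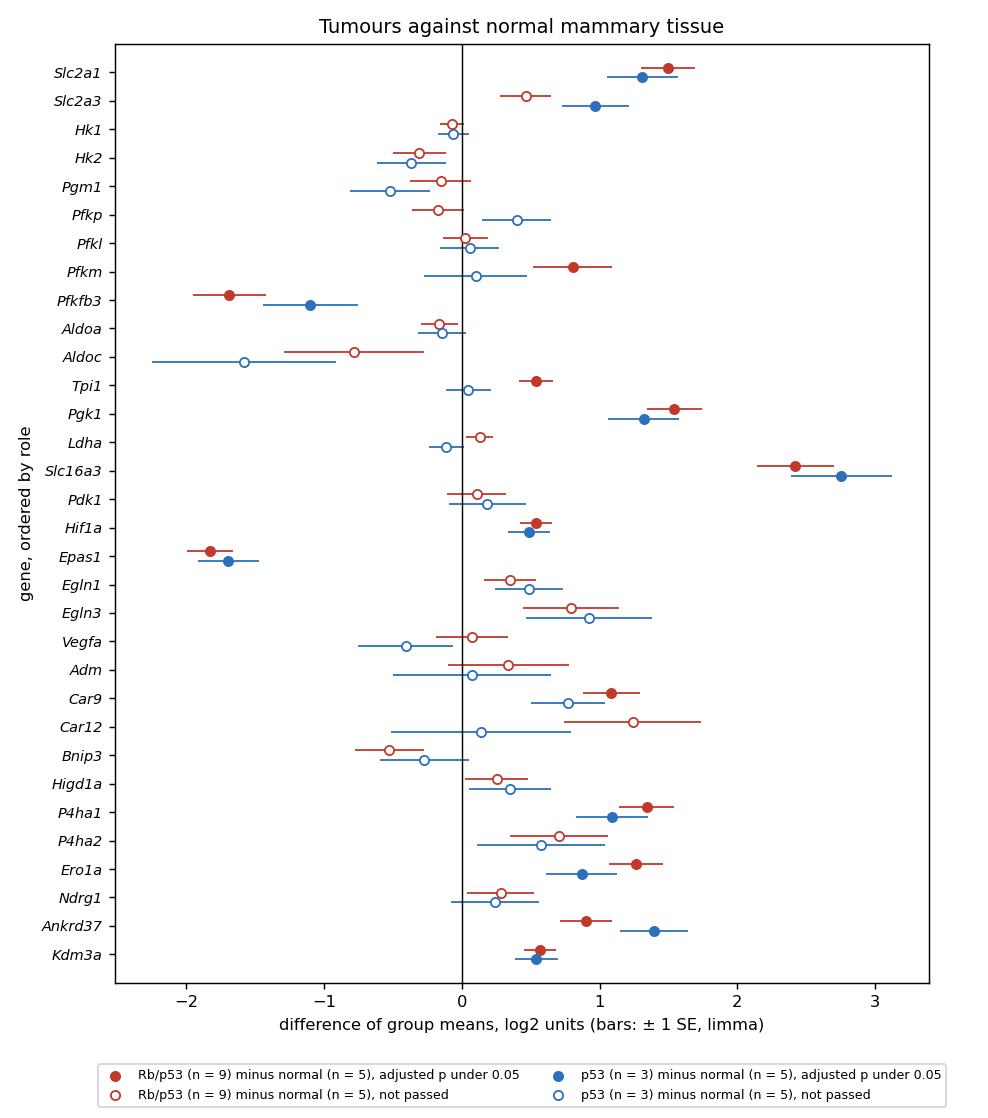
Difference of group means in log2 units for each gene, with bars of 1 standard error from limma; red is Rb/p53 (n = 9) minus normal (n = 5), blue is p53 (n = 3) minus normal, and filled points have an adjusted p under 0.05. Slc16a3 stands farthest to the right in both comparisons, at 2.42 and 2.75, and Pfkfb3 and Epas1 are the filled points to the left.

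Tumours and normal tissue differed in the markers of several cell types. The counts of markers that rose or fell stand beside 14.2% and 13.4% of all genes in Rb/p53 tumours. In p53 tumours 8.34% of all genes rose and 12.1% fell. The 9 measured of 10 adipocyte markers averaged 12.44 to 12.95 in normal tissue and 7.44 to 8.55 in the 12 tumours, and all 9 fell in both comparisons, Adipoq among them (12.54 to 13.31 in normal tissue and 6.07 to 8.33 in Rb/p53 tumours). The 10 skeletal muscle markers averaged 10.38, 10.18, 7.77, 7.76 and 9.12 in normal replicates 1 to 5 and 7.06 to 7.78 in tumours, and 9 fell in Rb/p53 and 3 in p53 tumours. The 9 luminal markers (normal 11.09 to 11.24, tumours 8.29 to 10.18; 7 and 6 fell) and the 6 basal markers (normal 10.54 to 10.92, tumours 8.03 to 9.13; 5 and 5 fell) were lower in tumours too. The 9 macrophage markers averaged 10.78 to 11.22 in normal tissue, 11.24 to 12.13 in Rb/p53 and 11.72 to 13.14 in p53 tumours, with 3 and 7 rising, and the 7 neutrophil markers 6.98 to 7.19, 7.62 to 10.29 and 7.76 to 10.63, with 5 and 3 rising. Endothelial markers, 8 of 8 measured, averaged 10.23 to 10.68 in normal tissue, 9.36 to 10.17 in Rb/p53 tumours and 10.01, 8.39 and 9.87 in the p53 tumours, with 2 and 5 falling. The 6 T cell markers averaged 7.66 to 7.85 in normal tissue, 6.83 to 7.30 in Rb/p53 tumours, where 4 fell, and 7.47 to 8.11 in p53 tumours, where 1 rose. The 7 fibroblast markers averaged 11.39 to 11.79, 10.40 to 11.81 and 10.58 to 12.0003, with 2 falling in Rb/p53 and 0 in p53 tumours. Of all 17 samples, p53 replicate 2 had the highest macrophage (13.14), neutrophil (10.63) and T cell (8.11) averages and the lowest endothelial average (8.39). In whole tissue, fewer cells of a type and less RNA per cell cannot be told apart, and the part of these shifts in the results below was not tested. With the 3 normal samples of highest muscle markers left out, a choice made after seeing those markers that leaves 2 normal samples, 7 genes passed in Rb/p53 and 5 in p53 tumours, beside 10% and 8.48% of all genes. Those that then no longer passed were Pfkm, Tpi1, Hif1a, Car9, Ankrd37 and Kdm3a in Rb/p53 tumours and Slc2a3, Pfkfb3, Hif1a, P4ha1, Ero1a and Kdm3a in p53 tumours.

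The glucose transporter Slc2a1 (GLUT1) rose 2.82-fold in Rb/p53 tumours. Its log2 level was 11.79, 12.98, 12.77, 12.86, 12.54, 12.47 and 12.75 in MMTV-Cre replicates 1 to 7, 12.82 and 12.53 in the Ad-Cre tumours, 13.06, 11.72 and 12.50 in the p53 tumours and 11.15, 11.26, 11.17, 11.04 and 10.98 in normal tissue. Every tumour lay above every normal sample, and MMTV-Cre replicate 1 and p53 replicate 2 were the lowest tumours. The Rb/p53 difference was 1.49 ± 0.20 (SE; limma adjusted p = 2.3e-05) and the p53 difference 1.31 ± 0.26 (adjusted p = 0.00161). With the 7 transplanted tumours left out the Rb/p53 difference was 1.27 and missed the threshold (adjusted p = 0.0526). That fit held 2 Rb/p53 tumours, 1 of them the low MMTV-Cre replicate 1, and the reason for the change was not tested.

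Slc2a3 (GLUT3), a transporter of high affinity, rose 1.96-fold in p53 tumours (0.97 ± 0.24, adjusted p = 0.00944). It read 8.29, 9.10 and 7.92 there and 7.23 to 7.76 in normal tissue, with p53 replicate 2 the highest of all 17 samples, and without that array the difference was 0.64 (adjusted p = 0.0592). In Rb/p53 tumours the difference of Slc2a3 was 0.46 ± 0.19 (adjusted p = 0.0738), and 0.46 with an adjusted p of 0.0266 when p53 replicate 2 no longer entered the shared spread.

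The hexokinases, which trap glucose in the cell as glucose 6-phosphate, did not pass with the probe sets used. Hk1 differed from normal tissue by -0.07 ± 0.09 in Rb/p53 and -0.06 ± 0.11 in p53 tumours, and Hk2 by -0.31 ± 0.19 and -0.37 ± 0.25. The Hk1 value depends on the probe set, as 18 sets name Hk1 and 16 of them name Rpl17 as well. The set used, chosen for its higher mean, is annotated with no RefSeq mRNA of Hk1. The other set that names Hk1 alone has such mRNAs and gave a Rb/p53 difference of 0.44 (adjusted p = 0.0485). No direction is therefore given for Hk1. Pgm1, which interconverts glucose 1-phosphate and glucose 6-phosphate and links glycolysis to glycogen, differed by -0.15 ± 0.22 and -0.52 ± 0.29, without passing.

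At the phosphofructokinase step, which commits sugar to glycolysis, the members went different ways. The liver-type subunit Pfkl and the platelet-type subunit Pfkp did not pass: Pfkl differed by 0.02 ± 0.16 and 0.06 ± 0.21, and Pfkp by -0.17 ± 0.19 and 0.40 ± 0.25, in Rb/p53 and p53 tumours. The muscle-type subunit Pfkm rose 1.75-fold in Rb/p53 tumours (0.81 ± 0.29, adjusted p = 0.0445), from 9.01 to 10.01 in normal tissue to 9.91 to 10.72, with overlap. This call is fragile. It was lost without any one of MMTV-Cre replicates 2 to 7, Ad-Cre replicate 1 or normal replicates 3, 4 and 5 (0.67 to 0.82; adjusted p = 0.0556 to 0.132), and also after cyclic loess or a further quantile normalisation. In p53 tumours Pfkm read 10.39, 8.28 and 10.29, a difference of 0.10 ± 0.37, and without replicate 2 it was 0.79 (adjusted p = 0.0427).

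Pfkfb3, the enzyme that makes and breaks down fructose 2,6-bisphosphate, the activator of phosphofructokinase, fell. It read 9.21, 9.23, 9.36, 9.11, 9.37, 9.07 and 9.73 in the MMTV-Cre Rb/p53 tumours, 8.71 and 9.53 in the Ad-Cre tumours, 9.55, 11.11 and 8.89 in the p53 tumours and 11.28, 10.74, 10.55, 11.22 and 10.94 in normal tissue. All 9 Rb/p53 tumours lay below all normal samples, 3.22 times lower on average (-1.69 ± 0.27, adjusted p = 0.000146), while p53 replicate 2 lay within the normal range. The p53 difference was -1.10 ± 0.35 (adjusted p = 0.0342). It missed the threshold without normal replicates 1, 4 or 5 (-1.10 to -1.02; adjusted p = 0.0533 to 0.0694), p53 replicate 1 (-0.95; adjusted p = 0.104) or 3 (-0.62; adjusted p = 0.166), after cyclic loess, and when the fit held only the arrays compared (adjusted p = 0.133).

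Among the measured genes of the main list for the steps from aldolase to enolase, only phosphoglycerate kinase rose in both comparisons. Pgam1 and Pkm, which belong to the separate list of glucose and pyruvate genes given below, also rose in both. The p53 call of Pgam1 has the limits stated there. Pgk1, which yields the first ATP of the lower pathway, rose 2.91-fold in Rb/p53 tumours (1.54 ± 0.20, adjusted p = 1.89e-05) and by 1.32 ± 0.26 on the log2 scale in p53 tumours (adjusted p = 0.00166). Its levels were 12.60, 13.13, 12.81, 12.76, 12.72, 12.96 and 13.06 in MMTV-Cre replicates 1 to 7, 13.07 and 12.39 in the Ad-Cre tumours, 13.25, 11.86 and 12.73 in p53 tumours, and 11.00, 11.76, 11.59, 10.93 and 11.17 in normal tissue. Only p53 replicate 2 came close to the normal range, 0.10 above its highest sample.

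Triose phosphate isomerase, Tpi1, rose 1.45-fold in Rb/p53 tumours (0.54 ± 0.12, adjusted p = 0.00363) and differed by 0.05 ± 0.16 in p53 tumours. It read 12.40 to 13.06 (median 12.83) in Rb/p53 tumours, 12.46, 11.92 and 12.60 in p53 tumours and 12.12 to 12.40 in normal tissue. The lowest Rb/p53 tumour, Ad-Cre replicate 2, was 0.0031 above the highest normal sample. Aldoa, the main aldolase, differed by -0.17 ± 0.13 and -0.15 ± 0.18. Aldoc, an aldolase typical of brain, differed by -0.78 ± 0.51 and -1.58 ± 0.67, the widest errors of the 32 genes in the p53 comparison. All 3 p53 tumours were below the normal samples for Aldoc (9.07, 9.08 and 9.83 against 10.15 to 11.45), but the Rb/p53 tumours ran from 8.37 to 12.33, and Aldoc did not pass in either comparison (adjusted p = 0.3 and 0.103) in the fit reported. In the p53 comparison it passed without Ad-Cre replicate 2 (-1.58, adjusted p = 0.0485) and when the fit held only the arrays compared (-1.58, adjusted p = 0.0167).

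The largest rise among the 32 genes was that of Slc16a3 (MCT4), which carries lactate out of cells. It read 10.02, 11.58, 10.98, 10.98, 9.94, 9.76 and 10.99 in MMTV-Cre replicates 1 to 7, 11.19 and 9.87 in the Ad-Cre tumours, 11.32, 10.58 and 10.86 in the p53 tumours, and 8.12, 8.11, 8.05, 8.38 and 8.19 in normal tissue. The lowest tumour stood 1.38 above the highest normal sample. The rise was 5.36-fold in Rb/p53 (2.42 ± 0.28, adjusted p = 5.67e-06) and 6.74-fold in p53 tumours (2.75 ± 0.37, adjusted p = 4.65e-05). Ldha, which makes the lactate, differed by 0.13 ± 0.10 and -0.11 ± 0.13 and did not pass (adjusted p = 0.373 and 0.55). It read 13.35 to 13.73 in Rb/p53 tumours, 13.58, 12.94 and 13.43 in p53 tumours and 13.25 to 13.55 in normal tissue, so the groups overlapped.

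**Figure D3:**
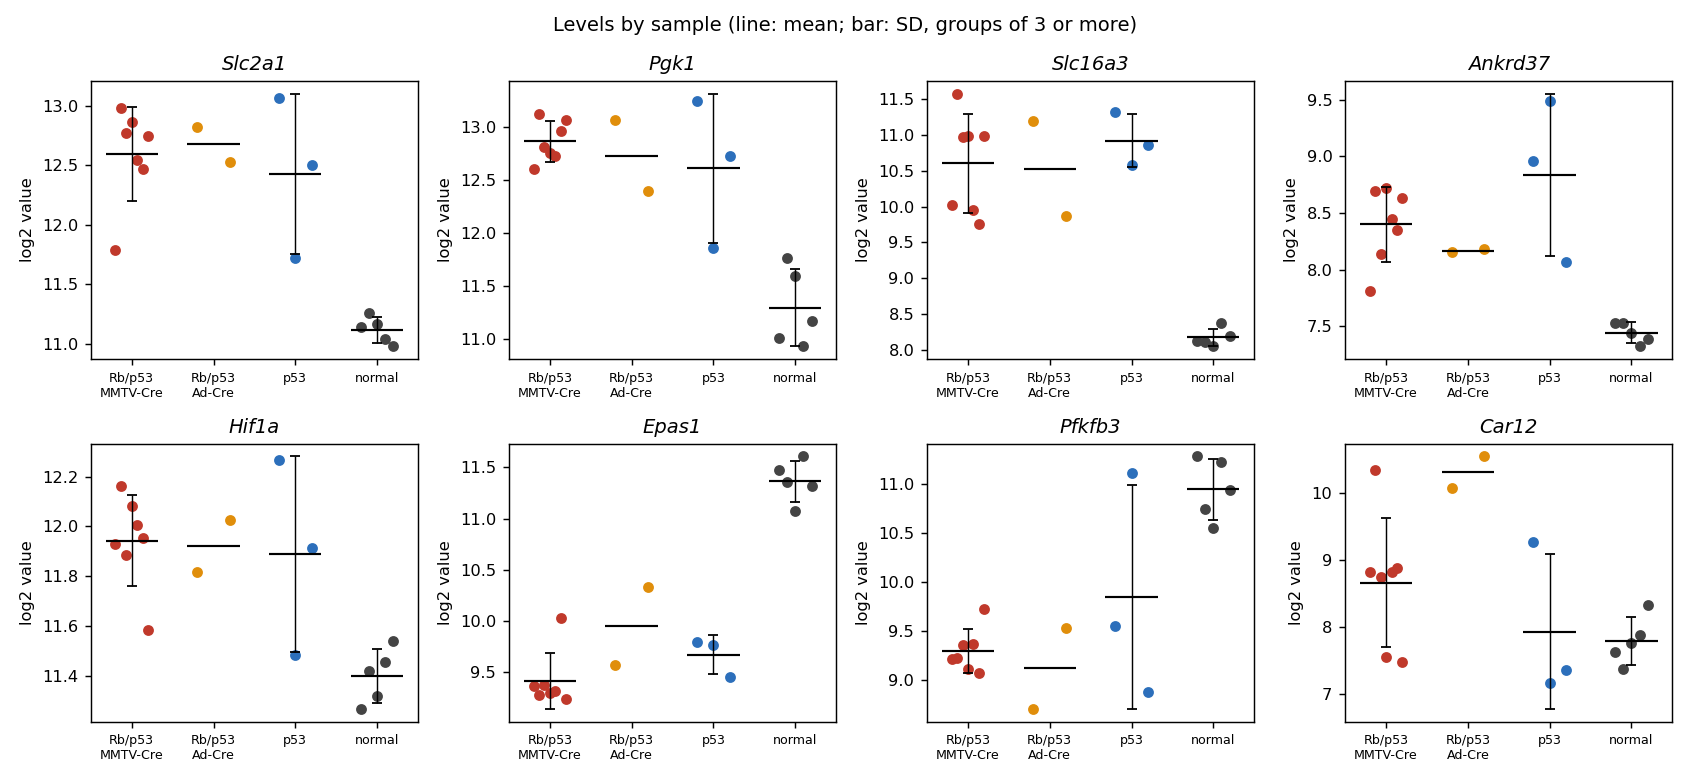
Log2 level in each sample of 8 of the genes (Slc2a1, Pgk1, Slc16a3, Ankrd37, Hif1a, Epas1, Pfkfb3 and Car12) in Rb/p53 MMTV-Cre (n = 7), Rb/p53 Ad-Cre (n = 2), p53 (n = 3) and normal samples (n = 5). Points are samples, lines are means and bars are SD in groups of 3 or more; every tumour lies above every normal sample for Slc2a1, Pgk1, Slc16a3 and Ankrd37 and below for Epas1, and Car12 is spread from 7.16 to 10.55 among the tumours.

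Pdk1, a kinase that switches off pyruvate dehydrogenase, differed by 0.11 ± 0.21 and 0.18 ± 0.28 and did not pass. The other genes of glucose and pyruvate handling, a list of 35 of which 30 were measured, held 6 that rose and 12 that fell in Rb/p53 tumours and 5 that rose and 11 that fell in p53 tumours, with a median of -0.10 in both. In Rb/p53 tumours 20% rose and 40% fell, beside 14.2% and 13.4% of all genes. In p53 tumours the shares were 16.7% and 36.7%, beside 8.34% and 12.1% of all genes. The rises were led in Rb/p53 tumours by the kinase Pdk3 (1.66 ± 0.15), the pyruvate kinase Pkm (1.30 ± 0.20), Eno2, the neuronal enolase (1.21 ± 0.38), and Pgm2, a phosphopentomutase (0.98 ± 0.11). The Eno2 call was lost without normal replicate 4 (1.21, adjusted p = 0.0519) or 5 (1.14, adjusted p = 0.061). In p53 tumours they were led by Pdk3 (1.15 ± 0.20), Pkm (1.08 ± 0.26), Pgm2 (0.72 ± 0.15) and the mutase Pgam1 (0.59 ± 0.17). Pgam1 no longer passed without p53 replicate 3 (0.43, adjusted p = 0.0984), normal replicate 1 (0.52, adjusted p = 0.0573) or normal replicate 4 (0.56, adjusted p = 0.0511). Pkm read 12.09 to 13.10 in Rb/p53 tumours, 12.74, 11.83 and 12.45 in p53 tumours and 10.71 to 11.96 in normal tissue. Gapdh had 25 probe sets, each naming other genes too, and was not analysed.

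The falls were led in Rb/p53 tumours by Slc2a4 (GLUT4, the insulin-responsive transporter of fat and muscle), which read 10.10 to 11.59 in normal tissue and 7.44 to 7.95 in these tumours (-3.40 ± 0.19, adjusted p = 7.27e-10), followed by the fructose transporter Slc2a5 (-1.96 ± 0.34), Pdk2 (-1.65 ± 0.20) and the mitochondrial pyruvate carrier subunit Mpc1 (-1.60 ± 0.16). In p53 tumours they were led by Pdk4 (-3.28 ± 0.60), Slc2a4 (-3.15 ± 0.25), Ldhb, the lactate dehydrogenase subunit of oxidative tissues (-2.80 ± 0.41), and Pdk2 (-2.16 ± 0.27). Pdk4 and Ldhb fell in Rb/p53 tumours too, by 1.51 ± 0.46 and 1.47 ± 0.32 on the log2 scale. The Pdk4 call there was lost without normal replicate 1 (-1.38, adjusted p = 0.0607) or 2 (-1.41, adjusted p = 0.0548). The Slc2a5 call in Rb/p53 tumours was lost without the 7 transplants (-1.25). Slc2a4 is at home in adipocytes and muscle, whose marker lists moved the same way, and their part in these falls was not tested.

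Further genes that make, move or oxidise pyruvate and lactate were put together after their values were seen, and their values are given as a description, where 27.6% and 20.4% of all genes were called. Slc16a3, Pkm and Pdk3 rose in both comparisons, and Mpc1, the pyruvate dehydrogenase genes Pdha1, Pdhb and Dlat, Ldhb, the monocarboxylate transporter Slc16a7, Pdk2 and Pdk4 fell in both. Pdhb fell by 1.06 and 1.22 on the log2 scale, Pdha1 by 0.69 and 1.28, and Dlat by 0.76 and 0.86. Among these, the calls of Pdha1 in Rb/p53 tumours (without normal replicate 2: -0.54, adjusted p = 0.0684), Slc16a7 in p53 tumours (without p53 replicate 1: -0.68, adjusted p = 0.104) and Dlat in p53 tumours (without p53 replicate 2: -0.52, adjusted p = 0.0946) rested on 1 sample. The Rb/p53 calls of Pdk4 (-0.41), Pdha1 (-0.45), Dlat (-0.65), Pdhb (-0.78), Slc16a7 (-1.41) and Pkm (1.13) were lost without the 7 transplants. Those of Pdk4 (-1.41), Pdha1 (-0.67), Dlat (-0.70) and Ldhb (-1.41) were lost without the 3 normal samples of highest muscle markers. The reason for these changes was not tested. Ldha, Pdk1, Pklr and Slc16a1 did not pass in either comparison.

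**Figure D4:**
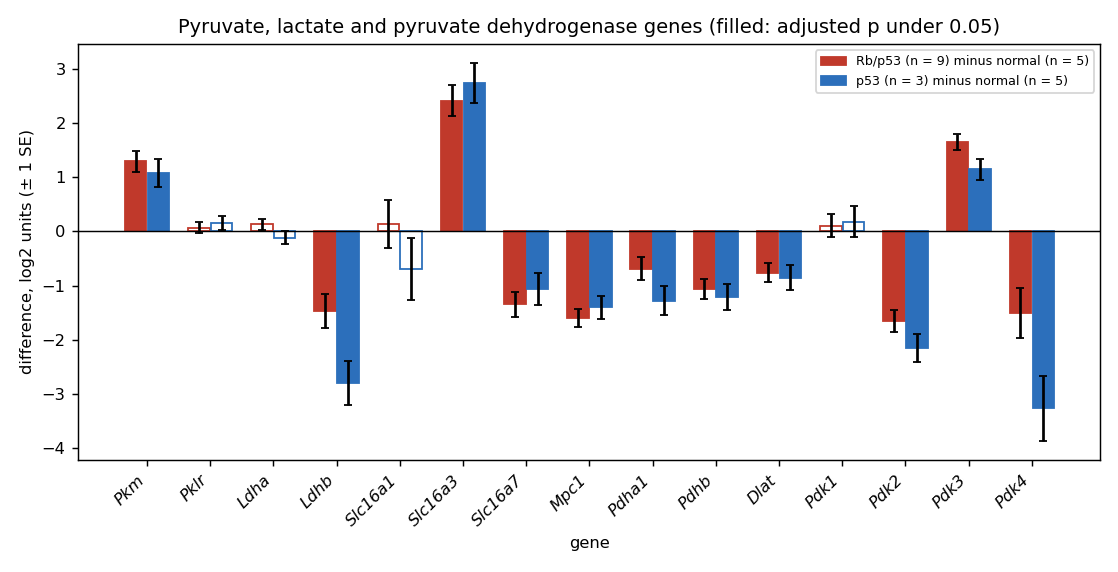
Difference from normal tissue in log2 units, with bars of 1 standard error, for 15 measured genes that make, move or oxidise pyruvate and lactate; red is Rb/p53 (n = 9), blue is p53 (n = 3), both against normal (n = 5), and filled bars have a limma adjusted p under 0.05. Slc16a3, Pkm and Pdk3 stand above 0 in both comparisons and Ldhb, Mpc1, Pdk2 and Pdk4 below.

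The HIF alpha subunits moved in opposite directions. Hif1a, the subunit present in nearly all cells, read 11.93, 12.16, 11.88, 12.08, 12.01, 11.95 and 11.58 in MMTV-Cre replicates 1 to 7, 11.82 and 12.03 in the Ad-Cre tumours, 12.27, 11.48 and 11.91 in p53 tumours and 11.27, 11.42, 11.32, 11.46 and 11.54 in normal tissue. All Rb/p53 tumours were above the normal samples, by 0.05 at the nearest, and p53 replicate 2 was within their range. The rise was 1.45-fold in Rb/p53 (0.54 ± 0.11, adjusted p = 0.00201) and 1.40-fold in p53 tumours (0.49 ± 0.15, adjusted p = 0.0297). In p53 tumours Hif1a no longer passed when p53 replicate 1 (0.30, adjusted p = 0.156) or 3 (0.48, adjusted p = 0.0561) was left out, nor without normal replicate 1 (0.45, adjusted p = 0.0618) or 3 (0.47, adjusted p = 0.0591), nor when the fit held only the arrays compared (adjusted p = 0.0996).

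Epas1 (HIF2 alpha), the subunit known from endothelium and some epithelia, read 9.36, 9.28, 9.38, 9.30, 9.31, 10.03 and 9.24 in the MMTV-Cre tumours, 9.58 and 10.34 in the Ad-Cre tumours, 9.80, 9.76 and 9.45 in p53 tumours and 11.47, 11.35, 11.07, 11.61 and 11.32 in normal tissue. Every tumour lay below every normal sample, with MMTV-Cre replicate 6 and Ad-Cre replicate 2 the highest tumours. Epas1 was 3.55 times lower in Rb/p53 (-1.83 ± 0.17, adjusted p = 4.14e-07) and 3.24 times lower in p53 tumours (-1.69 ± 0.22, adjusted p = 3.88e-05). The endothelial and adipocyte markers given above were lower as well, and their part in the fall of Epas1 was not tested.

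Egln1 and Egln3, the prolyl hydroxylases that act on HIF and are themselves HIF targets, did not pass, with differences of 0.35 ± 0.19 and 0.79 ± 0.35 in Rb/p53 and 0.49 ± 0.25 and 0.92 ± 0.46 in p53 tumours. Egln3 ranged from 9.01 to 11.55 among the Rb/p53 tumours and from 9.15 to 9.90 in normal tissue. It passed in Rb/p53 tumours without MMTV-Cre replicate 1 (0.96, adjusted p = 0.03), the tumour that read 9.01. Without p53 replicate 2, Egln1 (0.77, adjusted p = 0.0413) and Egln3 (1.46, adjusted p = 0.0357) passed in p53 tumours. Of 14 other HIF subunits and regulators, all measured, 4 rose and 1 fell in Rb/p53 tumours, with a median of 0.25: the ubiquitin ligase Siah2 (0.53 ± 0.15), the HIF beta subunit Arnt (0.45 ± 0.11), the elongin Elob (0.42 ± 0.10) and Vhl (0.32 ± 0.11) rose, and Hif3a fell (-0.56 ± 0.10). This was 28.6% rising and 7.14% falling, beside 14.2% and 13.4% of all genes. The Vhl call was lost without any one of MMTV-Cre replicates 3, 5 and 7, either Ad-Cre tumour, or normal replicates 4 and 5 (0.24 to 0.32). In p53 tumours 1 of the 14 rose, the coactivator Ep300 (0.46 ± 0.15, adjusted p = 0.0432), which no longer passed without p53 replicate 1 (0.44) or 2 (0.38) and without any one of normal replicates 1 to 3, MMTV-Cre replicates 4, 6 and 7 or Ad-Cre replicate 1. That was 7.14% of the list rising and 0% falling, beside 8.34% and 12.1% of all genes.

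Of the 3 HIF targets of collagen maturation and protein folding, P4ha1 and Ero1a rose in both comparisons and P4ha2 did not pass. P4ha1, a subunit of the prolyl hydroxylase of collagen, rose 2.53-fold in Rb/p53 (1.34 ± 0.20, adjusted p = 9.53e-05) and 2.13-fold in p53 tumours (1.09 ± 0.26, adjusted p = 0.00747), from 9.82 to 10.15 in normal tissue to 10.63 to 11.99 in Rb/p53 tumours and 11.72, 10.57 and 11.00 in p53 tumours, with no overlap. Without p53 replicate 1 the p53 difference of P4ha1 was 0.78 (adjusted p = 0.0512). The related subunit P4ha2 differed by 0.71 ± 0.36 and 0.57 ± 0.47; in p53 tumours it read 10.04, 7.56 and 9.68, and without p53 replicate 2 it passed in both comparisons (0.71, adjusted p = 0.0419, and 1.34, adjusted p = 0.0197). Ero1a, an oxidase that forms disulphide bonds in the endoplasmic reticulum, read 11.21 to 12.21 (median 11.62) in Rb/p53 tumours, 11.77, 10.54 and 11.34 in p53 tumours and 10.12 to 10.57 in normal tissue. It rose 2.40-fold in Rb/p53 (1.27 ± 0.20, adjusted p = 0.000127) and 1.83-fold in p53 tumours (0.87 ± 0.26, adjusted p = 0.0242), the latter lost without p53 replicate 1 (0.59, adjusted p = 0.123), p53 replicate 3 (0.81, adjusted p = 0.0573), normal replicate 1 (0.81, adjusted p = 0.0518) or normal replicate 3 (0.83, adjusted p = 0.0504).

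Ankrd37, a small ankyrin repeat protein and HIF target, rose 1.87-fold in Rb/p53 (0.90 ± 0.19, adjusted p = 0.00178) and 2.63-fold in p53 tumours (1.39 ± 0.25, adjusted p = 0.000699). It read 7.81, 8.70, 8.14, 8.72, 8.45, 8.35 and 8.63 in MMTV-Cre replicates 1 to 7, 8.15 and 8.18 in the Ad-Cre tumours, 8.96, 9.48 and 8.07 in p53 tumours and 7.53, 7.53, 7.44, 7.32 and 7.39 in normal tissue. Every tumour was above every normal sample, and p53 replicate 2, low for most of the genes that rose, was the highest. Kdm3a, a histone demethylase, rose 1.48-fold in Rb/p53 tumours (0.57 ± 0.12, adjusted p = 0.00172) and by 0.54 ± 0.15 on the log2 scale in p53 tumours (adjusted p = 0.0203). Its groups overlapped: Rb/p53 tumours read 9.67 to 10.23 and normal samples 9.26 to 9.70. In p53 tumours Kdm3a no longer passed without replicate 1 (0.44, adjusted p = 0.0848) or 2 (0.45, adjusted p = 0.079), or when the fit held only the arrays compared (adjusted p = 0.0769). Ndrg1, a stress-induced gene of differentiation, differed by 0.28 ± 0.24 and 0.24 ± 0.32 and did not pass.

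Car9, a carbonic anhydrase on the cell surface that helps export acid, rose 2.12-fold in Rb/p53 tumours (1.09 ± 0.21, adjusted p = 0.000789). It read 7.37, 8.83, 8.56, 8.30, 7.93, 7.90 and 8.43 in MMTV-Cre replicates 1 to 7, 8.26 and 7.74 in the Ad-Cre tumours, 8.39, 7.51 and 7.59 in p53 tumours and 6.90 to 7.21 in normal tissue. All 12 tumours were above the normal samples, yet the p53 difference of 0.77 ± 0.27 just missed the threshold (adjusted p = 0.0526), and it passed without any one of MMTV-Cre replicates 1 (0.77, adjusted p = 0.03) and 2 (0.77, adjusted p = 0.0352) or p53 replicates 2 (0.93, adjusted p = 0.0402) and 3 (0.89, adjusted p = 0.0457). Its relative Car12 differed by 1.24 ± 0.50 (adjusted p = 0.0751) and 0.14 ± 0.65 (adjusted p = 0.897). Car12 was the most uneven of the genes among the Rb/p53 tumours apart from Aldoc: MMTV-Cre replicate 2 and both Ad-Cre tumours read 10.35, 10.08 and 10.55, while MMTV-Cre replicates 4 and 7 read 7.54 and 7.47, below most normal samples (7.36 to 8.33). Without MMTV-Cre replicate 4 or 7 the Rb/p53 difference of Car12 was 1.43 and passed (adjusted p = 0.0342 and 0.0323).

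The secreted factors did not pass. Vegfa, which drives vessel growth, differed by 0.07 ± 0.26 in Rb/p53 and -0.41 ± 0.34 in p53 tumours, and Adm, the vessel-dilating peptide adrenomedullin, by 0.34 ± 0.44 and 0.08 ± 0.57. Both varied more among tumours than among normal samples: Vegfa ran from 10.39 to 11.74 in Rb/p53 tumours and from 10.83 to 11.15 in normal tissue, and Adm from 8.19 to 10.75 and from 8.29 to 9.39. Of the mitochondrial targets, Bnip3, a receptor for mitophagy, differed by -0.53 ± 0.25 and -0.27 ± 0.32, and Higd1a, a protein of the respiratory chain, by 0.25 ± 0.23 and 0.35 ± 0.30, without passing.

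Of 33 other hypoxia targets, 31 were measured, and they moved both ways: 12 rose and 7 fell in Rb/p53 tumours (median 0.24), and 6 rose and 8 fell in p53 tumours (median 0.06). The Rb/p53 shares were 38.7% rising and 22.6% falling, beside 14.2% and 13.4% of all genes. The p53 shares were 19.4% and 25.8%, beside 8.34% and 12.1% of all genes. In Rb/p53 tumours the rises were led by the collagen cross-linking enzymes Lox (1.82 ± 0.52) and Plod2 (1.70 ± 0.33), the mitochondrial kinase Ak4 (1.73 ± 0.41) and Fam162a (1.35 ± 0.26). The falls were led by the repressor Bhlhe41 (-1.56 ± 0.30), the glycogen-targeting subunit Ppp1r3c (-1.46 ± 0.31), the lipoprotein receptor Vldlr (-1.37 ± 0.30) and the secreted protein Stc2 (-1.30 ± 0.30). Without the 7 transplants the Rb/p53 calls of Plod2 (1.86), Ak4 (1.875) and Fam162a (1.27) were lost. Without the 3 normal samples of highest muscle markers those of Lox (1.64), Vldlr (-1.37) and Stc2 (-1.17) were lost. In p53 tumours the 4 genes that led the Rb/p53 falls led again (Ppp1r3c -2.76 ± 0.40, Bhlhe41 -1.87 ± 0.39, Vldlr -1.74 ± 0.39 and Stc2 -1.68 ± 0.40). The rises there were led by Plod2 (1.46 ± 0.43), the inducible nitric oxide synthase Nos2 (1.39 ± 0.33), the haem oxygenase Hmox1 (1.08 ± 0.29) and Wsb1 (0.99 ± 0.23). Plod2 no longer passed there without p53 replicates 1 (0.87, adjusted p = 0.131) or 3 (1.23, adjusted p = 0.0727) or normal replicate 1 (1.30, adjusted p = 0.053). That of Hmox1 was lost without p53 replicate 1 (0.89, adjusted p = 0.0701) or 2 (0.84, adjusted p = 0.0778). Nos2 and Hmox1 are also expressed by macrophages, whose markers averaged 11.72 to 13.14 in the p53 tumours against 10.78 to 11.22 in normal tissue, and the part of macrophages in these rises was not tested.

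Rb/p53 and p53 tumours were also compared directly. Of the 9 Rb/p53 tumours 7 were transplants and 2 had Ad-Cre, while the p53 tumours were labelled MMTV-Cre, apart from the conflict over replicate 3, with no host given. Loss of Rb can therefore not be told apart from transplantation here. None of the 32 genes passed in limma, where 0.00502% of all genes, a single gene, did. Without adjustment 2 of the 32 had p under 0.05, as did 4117 of all genes (20.6%). These were Tpi1, at a difference of 0.49 ± 0.16 (adjusted p = 0.175), and Pfkp, at -0.57 ± 0.25 (adjusted p = 0.23). With each sample left out in turn at most 1 gene passed. With only the MMTV-Cre tumours 0 of the 32 passed, beside 0.00502% of all genes, and with no transplants 0 passed, beside 0% of all genes. The median difference of the 32 genes was 0.05. No gene of the 32 separated the groups without overlap in either direction, where 1.67% of all genes were higher and 1.47% lower in every Rb/p53 tumour. With 3 p53 tumours the errors are wide: for Slc2a1 the difference was 0.19, for Pgk1 0.22, for Slc16a3 -0.33 and for Epas1 -0.13, each smaller than its difference from normal tissue. When p53 replicate 3 was instead counted among the Rb/p53 tumours, Ankrd37 (-0.90, adjusted p = 0.0341) and Pfkfb3 (-1.11, adjusted p = 0.0471) were lower in Rb/p53 tumours, beside 10.3% of all genes called, and with it left out Ankrd37 was (-0.87, adjusted p = 0.0479; 6.81% of all genes called). The remaining p53 tumours are then replicates 1 and 2. Cell markers also differed between these groups: all 9 macrophage markers were lower on average in Rb/p53 tumours (median -0.77, 6 with an unadjusted p under 0.05), and 5 of the 6 T cell markers had an unadjusted p under 0.05, with list averages of 6.83 to 7.30 in Rb/p53 and 7.47 to 8.11 in p53 tumours. None of these markers passed after adjustment, and their part in the values above was not tested.

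Neither the way Cre was delivered nor transplantation gave a called difference among the 32 genes. Between the 2 Ad-Cre and 7 MMTV-Cre Rb/p53 tumours 0 passed in limma, where 0.00502% of all genes did, and 3 had an unadjusted p under 0.05, as did 2.07% of all genes: Aldoc (1.79 ± 0.64), Car12 (1.65 ± 0.69) and Epas1 (0.54 ± 0.23), each higher in the Ad-Cre tumours. Between the 5 transplanted and 2 other MMTV-Cre tumours 0 passed, where 0.0251% of all genes did (0.00502% higher and 0.0201% lower in transplants), and 0 of the 32 had an unadjusted p under 0.05, as 7.92% of all genes did. The largest difference there was that of Car12, -1.29 ± 0.57 (adjusted p = 0.628). Groups of 2 can leave differences of this size undetected. The median transplant difference of the 32 genes was 0.02, but -0.25 without MMTV-Cre replicate 1 and 0.38 without MMTV-Cre replicate 2. Both Ad-Cre tumours were transplants, while MMTV-Cre replicates 1 and 2 were not. With MMTV-Cre transplants only, 0 of the 32 genes passed between the Cre models, beside 0.00502% of all genes.

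The spread among tumours had a direction. Each gene was set against its median over the 12 tumours. In p53 replicate 1, 29 of the 32 genes were above that median and 10 were at their highest, and in MMTV-Cre replicate 2, from the parous mouse, 25 were above and 7 highest. MMTV-Cre replicate 1, from the nulliparous mouse, had 5 above and 5 at their lowest, and p53 replicate 2, the array of narrower spread that stood apart, had 8 above and 17 at their lowest. That sample also had the highest macrophage, neutrophil and T cell marker averages and the lowest endothelial average. The part of its spread and of its cell makeup in its low readings was not tested. Of all genes, 41.0% to 57.0% were above the median in each tumour. MMTV-Cre replicate 7 and Ad-Cre replicate 1 followed with 25 and 23 genes above, and Ad-Cre replicate 2 had 8. The high and low tumours came from the Rb/p53 and the p53 group alike, and these counts are a description with no test.

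**Figure D5:**
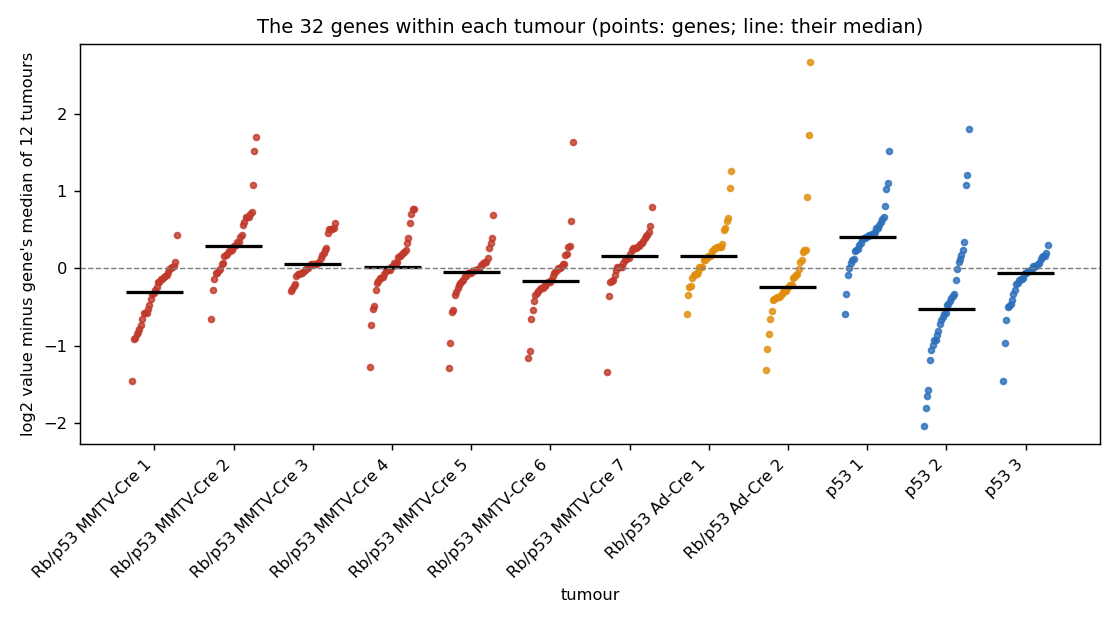
For each of the 12 tumours, the log2 value of each of the 32 genes minus the median of that gene over the 12 tumours; points are genes and the line is the median of the 32. The lines stand at 0.41 in p53 replicate 1 and 0.29 in MMTV-Cre replicate 2, and at -0.53 in p53 replicate 2 and -0.30 in MMTV-Cre replicate 1.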

How the data were processed

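Total RNA of 17 samples was hybridised to Affymetrix Mouse Gene 1.0 ST arrays, 1 array a sample. The deposited table holds log2 intensities that the authors made with RMA and Partek 5.6, per the submitters' processing notes, for 35556 probe sets. Of the probe sets, 21789 carried 1 gene symbol, 1621 several and 12146 none in the annotation used here; those with 1 symbol gave 19938 genes, the set with the highest mean standing for a gene. The comparisons with normal tissue were fitted in limma 3.58.1 (R 4.3.3) on all 17 arrays, as Rb/p53, p53 and normal groups with a shared spread. Rb/p53 against p53 and Ad-Cre against MMTV-Cre were fitted on the 12 tumour arrays. Transplanted against other MMTV-Cre tumours were fitted on the 7 MMTV-Cre Rb/p53 arrays. Each fit used eBayes and Benjamini-Hochberg adjustment over the 19938 genes. The fits were also run on simulated data with independent noise and known shifts. Those data held no difference in cell makeup and no outlying array, so that run does not bear on either. The p-values reflect only how these tumours and tissues differed among themselves.

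The 34 genes, the pathway lists and the marker lists were chosen with earlier results of these data known. Named are all 34 genes and, of each pathway list, up to 4 of the largest rises and falls past the threshold in each comparison with normal tissue, and Pkm and Gapdh; genes around pyruvate beyond these were named after their values were seen. Alternatives were other normalisations, a low-value filter, other variance models, array weights, other probe sets, fewer arrays, a fold threshold, p53 replicate 3 moved, and each array left out.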

Additional observations from a re-analysis of the deposited data

Results flagged for a closer look

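Of 64 groups of 4 to 10 samples examined over the 32 genes, 2 held a sample far from the rest by Dixon's criterion, which chance meets in about 1 in 20 groups. Slc2a1 was lowest in Rb/p53 MMTV-Cre replicate 1, at 11.79, with the next tumour of its group at 12.47. Epas1 was highest in Rb/p53 MMTV-Cre replicate 6, at 10.03, with the next at 9.38; that tumour still lay below all normal samples.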

How the results depend on the processing

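Of the 13 genes that passed in Rb/p53 tumours, Epas1, Ero1a, P4ha1, Pfkfb3, Pgk1 and Slc16a3 passed in all 30 alternatives that refitted them, and of the 11 in p53 tumours, Ankrd37, Epas1, Pgk1, Slc16a3 and Slc2a1 in all 28. With no transplants the Rb/p53 count was 6, and 9, 0 and 7 in the glycolysis, HIF regulator and hypoxia target lists (18, 5 and 19 otherwise), beside 10.1% of all genes. A log2 difference of at least 1 as well left 8 genes in Rb/p53 and 7 in p53 tumours, beside 8.18% and 8.11% of all genes, and in the lists 11 of glycolysis and 0 HIF regulators in Rb/p53 and 0 HIF regulators in p53 tumours. Without the 3 normal samples of high muscle markers the counts were 7 and 5, beside 10% and 8.48% of all genes. In the lists they were 11, 1 and 9 in Rb/p53 and, for HIF regulators and hypoxia targets, 0 and 2 in p53 tumours. Pgam2 then turned to 0.38 in Rb/p53 tumours. With each sample left out, the counts of the 32 genes ran from 12 to 15, from 6 to 14 and, for Rb/p53 against p53, from 0 to 1, beside 22.1% to 33.7%, 16.2% to 26.9% and 0.00502% to 6.81% of all genes. For the lists they ran, in the same order of comparisons, from 15 to 19, 13 to 16 and 0 to 1 (glycolysis), from 4 to 7, 0 to 2 and 0 to 1 (HIF regulators) and from 16 to 21, 10 to 15 and 0 to 2 (hypoxia targets). The single HIF regulator of the p53 comparison became 0 with a trended robust variance, with only the arrays compared, or with p53 replicate 2 left out and replicate 3 moved, and 2 with array weights; only the arrays compared left 9 hypoxia targets there. Moving p53 replicate 3 gave 2 of the 32 genes, 1 of glycolysis, 2 HIF regulators and 2 hypoxia targets between Rb/p53 and p53 tumours. In that fit 10.3% of all genes were called. Hk1 turned to 0.44 with its other probe set. Where fewer samples are compared fewer genes can pass; other causes were not tested. No paired analysis was possible because the replicate numbers do not come from the labels and pair no samples.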
